A study of Arabidopsis thaliana with 8 samples.

Results

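A de-etiolated mutant of Arabidopsis thaliana was compared with the wild type Wassilewskija (Ws) in transcript levels across the genome. The comparison rested on 4 of the 8 arrays of the study, which were grouped by their source label. They were 2 arrays of the de-etiolated mutant, which is in the Col background, and 2 arrays of Ws. Ws was chosen over the other wild type because its signals correlated more closely with those of the mutant. The other 4 arrays held a gibberellin-deficient mutant with a leaky allele in the Ler background (2 arrays) and its wild type Ler-0, called Ler here (2 arrays). All RNA came from whole seedlings that were 7 days old and had received no treatment. The labels give no mutated gene and no allele for the de-etiolated line, so its genotype could not be checked against a transcript. No Col wild type was analysed here, and mutation and accession cannot be told apart in any difference given below. In RNA from whole seedlings, fewer cells of a type and less RNA per cell cannot be told apart either.

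A seedling kept in the dark is etiolated: its hypocotyl is long, its cotyledons are closed and its plastids are not green. De-etiolated mutants take on features of light-grown seedlings in the dark. Loci of this name act in different processes, among them the repression of light-regulated genes, the synthesis of brassinosteroids and the acidification of the vacuole. Brassinosteroids are steroid hormones that promote cell expansion, in part through genes for proteins that loosen or remodel the cell wall.

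The arrays gave 1 signal per probe set (a group of probes for one transcript or a few), in units of the MAS5 algorithm. Levels are compared between arrays for one probe set and not between probe sets. Whether a probe set binds the transcripts of each accession alike was not tested, so a difference in signal need not be one in transcript. The 2%-trimmed mean signal was 100.01 in every array, and median signals lay between 34.9 and 38.4. Ws was chosen for the comparison as the wild type nearest to the mutant by correlation in these data, so its nearness is no finding. Correlations of log2 signal over probe sets were 0.9535 to 0.9657 between mutant and Ws arrays. Between mutant and Ler arrays they were 0.9126 to 0.9253. The 2 mutant arrays correlated at 0.9725 with each other and the 2 Ws arrays at 0.9762. The older actin control had a ratio of 3′ to 5′ signal of 2.35 and 2.32 in the mutant, against 2.26 and 1.90 in Ws. It was 3.84 and 4.93 in the gibberellin-deficient mutant and 5.22 and 4.77 in Ler. The ubiquitin control had a ratio of 0.986 and 1.65 in the mutant, against 1.83 and 1.44 in Ws. The 25S ribosomal RNA control had a signal of 108 and 62.4 in the mutant, against 32.0 and 22.2 in Ws. It was 69.7 and 39.6 in the gibberellin-deficient mutant and 30.3 and 26.0 in Ler. The part of these controls in the differences below was not tested. Of the tissue markers chosen for leaf, root, seed and flower, a probe set names EXPA7 alone, an expansin of root hair cells, with a signal of 108 and 111 in the mutant and 127 and 104 in Ws. Genes of the photosynthetic apparatus were bright in both groups, such as LHCB4.1, a light-harvesting protein, at 1530 and 1995 in the mutant and 2099 and 1818 in Ws.

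A log2 difference below is the mean of the mutant minus that of Ws, on the log2(signal + 2.96) scale, with its limma standard error (SE). A probe set was called where the Benjamini-Hochberg adjusted p over all 13647 probe sets tested was under 0.05. Of these, 306 were called (2.24%), 184 higher (1.35%) and 122 lower (0.894%) in the mutant. At an unadjusted p under 0.05 there were 2310, and 1535 without replicate 2 of Ws. The median log2 difference was 1.05 among the called rises and -0.89 among the called falls, against 0.02 over all probe sets tested. Rises made up 60.1% of the calls, but 47.1% when each array was centred on its median. At least 2-fold on this scale were 101 rises and 50 falls. In all 306 the mutant arrays did not overlap the Ws arrays, as in 46.4% of all probe sets tested.

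Single arrays, left out one at a time here and below, weighed heavily on these counts. Without replicate 2 of Ws, 77 probe sets were called (47 higher and 30 lower, 73 of them at least 2-fold). Without replicate 1 of the mutant, 115 were called (55 higher and 60 lower, 91 at least 2-fold). Without replicate 1 of Ws, 185 were called (97 higher and 88 lower). Without replicate 2 of the mutant, 367 were called (210 higher and 157 lower, 236 at least 2-fold). Calls lower in the mutant numbered 74 without either gibberellin-deficient array, which add to the estimate of the spread. Of the 306 probe sets, 57 kept their call whichever of the 8 arrays was left out.

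**Figure D1:**
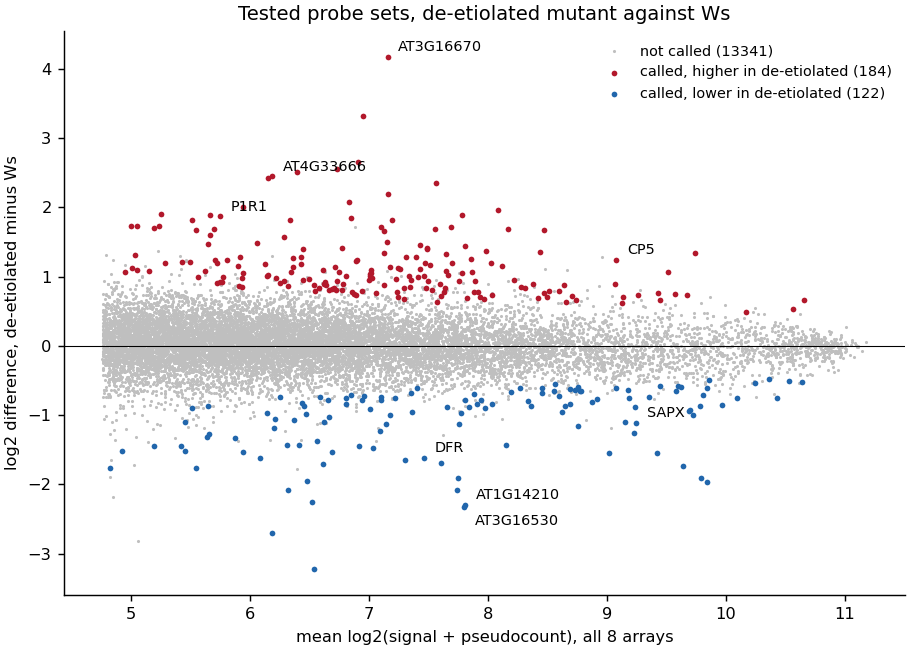
Log2 difference of the de-etiolated mutant minus Ws (vertical axis) against the mean log2(signal + pseudocount) over all 8 arrays (horizontal axis), 1 point per tested probe set. Red points are the 184 called rises, blue points the 122 called falls and grey points the probe sets not called. AT3G16670 lies highest, at 4.18, and most points lie near 0.

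About as many called probe sets lack a gene name here as have one. Of the 306, 146 name 1 gene, 5 name several and 155 (50.7%) name none, and 25 genes carry a symbol or alias. Counted once per gene, 145 of 7271 named genes were called (1.99%), 90 higher (1.24%) and 55 lower (0.756%). Some of the largest changes belong to probe sets that name no gene, and 3 of them are given here, chosen after their values were seen. Probe set 260221_at had a signal of 786 and 570 in the mutant, against 50.7 and 82.0 in Ws (log2 difference 3.32, SE 0.32, adjusted p = 0.000341). Probe set 262135_at had a signal of 479 and 346 in the mutant, against 66.0 and 67.8 in Ws (2.55, SE 0.18). Probe set 254283_s_at had a signal of 13.0 and 4.27 in the mutant, against 83.3 and 114 in Ws (-3.23, SE 0.37, adjusted p = 0.001). Its signal was also high in Ler (168 and 370), so the mutant lay below both wild types.

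With 4 groups on the same arrays, each called probe set could be placed by which pair of arrays lay outside the range of the other 6. Among the 184 rises, both mutant arrays lay above all 6 others in 138 (75.0%), against 9.53% of all probe sets tested. Both Ws arrays lay below all 6 others in 46 (25.0%), against 6.0% of all tested, and 18 met both conditions. Among the 122 falls, both mutant arrays lay below all others in 84 (68.9%), against 8.34% of all tested. Both Ws arrays lay above all others in 31 of these falls (25.4%, against 4.37% of all tested), and 13 met both. For 18 rises and 20 falls neither pair lay outside. Over all calls, the share with Ws arrays outside was 25.2%, and 40.5% without replicate 1 of Ws, where a single Ws array had to lie outside. A call selects for separation between mutant and Ws, so these shares describe the calls and carry no test.

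**Figure D2:**
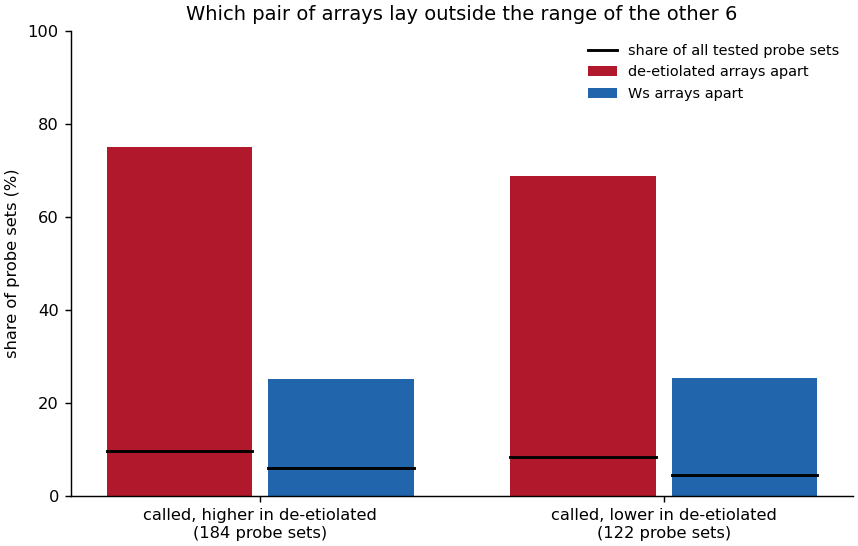
Share of called probe sets (vertical axis, %) whose 2 de-etiolated arrays (red) or 2 Ws arrays (blue) lay outside the range of the other 6 arrays, on the side that fits the call, for the 184 rises and the 122 falls. The black lines give the same share over all tested probe sets, and the red bars of 75.0% and 68.9% stand above the blue bars of 25.0% and 25.4%.

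The largest rise among named genes was that of AT3G16670, for which the gene table holds a locus tag only. Its signal was 1340 and 1116 in the mutant, against 68.0 and 61.9 in Ws, a log2 difference of 4.18 (SE 0.33, adjusted p = 6.87e-05), or 18.1-fold. The neighbouring gene AT3G16660 had a signal of 411 and 389 in the mutant, against 48.2 and 77.1 in Ws (2.65, SE 0.24, adjusted p = 0.00018). For both genes the 2 mutant arrays lay above all 6 others, since Ler and the gibberellin-deficient mutant reached at most 121 for AT3G16670 and 107 for AT3G16660. AT4G33666 had a signal of 203 and 240 in the mutant, against 37.1 and 38.4 in Ws (2.46, SE 0.19, adjusted p = 6.87e-05). AT5G01740 had a signal of 275 and 232 in the mutant, against 39.3 and 50.6 in Ws (2.43, SE 0.20, adjusted p = 0.000114). These 4 genes kept their calls without any 1 array.

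Further rises known by locus tag only, taken after their values were seen, ran from 1.70 to 2.09 in log2 difference. Of these 8 genes, 3 kept their calls without any 1 array. AT1G47400 had a signal of 116 and 265 in the mutant, against 40.4 and 42.3 in Ws (2.01, SE 0.30, adjusted p = 0.00544). AT5G02540 had a signal of 111 and 116 in the mutant, against 29.0 and 30.7 in Ws (1.82, SE 0.24, adjusted p = 0.00237). AT5G22580 was placed differently, since Ws was the group that lay apart. Its signal was 182 and 192 in the mutant and 38.7 and 45.2 in Ws (2.09, SE 0.22, adjusted p = 0.000665), but 229 and 140 in Ler. AT1G47400, AT5G02540 and AT5G22580 are the 3 that kept their calls. AT5G18600, AT1G23390, AT2G15830 and AT2G15960 (1.90, 1.84, 1.74 and 1.72) lost theirs without replicate 2 of Ws (adjusted p 0.0613 to 0.166). Without replicate 1 of the mutant AT5G18600 (0.17), AT2G15830 (0.167) and AT2G15960 (0.0616) lost them too, as did AT5G18600 (0.0526) and AT2G15830 (0.0799) without replicate 1 of Ws. AT3G28320 rose by 1.70 (SE 0.31, adjusted p = 0.0152), with 166 and 209 in the mutant, 69.4 and 43.8 in Ws, and 8.16 and 6.21 in Ler. Its call was lost without either mutant array or without replicate 2 of Ws (adjusted p up to 0.154).

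Transcription factors were among the rises of genes with a symbol or alias. AT5G61590 (alias DEWAX), which represses the synthesis of cuticular wax, had a signal of 256 and 184 in the mutant, against 87.9 and 80.7 in Ws. Its log2 difference was 1.34 (SE 0.19, adjusted p = 0.00433), and the call held without any 1 array. Mutant arrays were the highest and Ws arrays the lowest of all 8, with Ler between them at 166 and 124. AT5G47390 (alias KUA1), a MYB-type factor that promotes cell expansion in leaves, had a signal of 208 and 211 in the mutant, against 126 and 82.7 in Ws (1.01, SE 0.19, adjusted p = 0.0182). GT-1, which binds GT elements in promoters of light-regulated genes, had a signal of 66.2 and 78.4 in the mutant, against 41.7 and 28.7 in Ws (1.0, SE 0.22, adjusted p = 0.0407). For both, the mutant arrays lay above all others and the Ws arrays were the less even pair. The call of AT5G47390 was lost without either mutant array or without replicate 2 of Ws (adjusted p 0.0577 to 0.154). The call of GT-1 was lost without any 1 of the arrays except replicate 1 of Ws (adjusted p 0.0521 to 0.278).

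Next among the rises with a symbol were 4 genes of different roles. AKINBETA1, a beta subunit of the energy-sensing kinase SnRK1, had a signal of 158 and 124 in the mutant, against 80.6 and 69.8 in Ws (0.87, SE 0.18, adjusted p = 0.0238). SFP1, a member of the sugar transporter family, had a signal of 166 and 230 in the mutant, against 101 and 115 in Ws (0.85, SE 0.20, adjusted p = 0.0483). SIS, a serine-rich protein induced by salt, had a signal of 49.4 and 51.2 in the mutant, against 21.5 and 21.3 in Ws (1.13, SE 0.25, adjusted p = 0.0375). The SIS pairs were the closest of these, yet its dim signal left a wide SE. DI21, named for its induction by drought, had a signal of 66.6 and 74.6 in the mutant, against 39.6 and 36.5 in Ws (0.84, SE 0.16, adjusted p = 0.019). Against Ler, at 168 and 175, the mutant was lower in DI21 (-1.25, adjusted p = 0.000375), so the rise against Ws went with a low level in Ws. Ws likewise lay below all other arrays for SFP1. Each of these 4 calls was lost without either Ws array. The calls of AKINBETA1 without replicate 1 of the mutant and those of SFP1, SIS and DI21 without either mutant array were lost too. SFP1 was also lost without either gibberellin-deficient array and SIS without replicate 1 of them. The highest adjusted p without 1 array was 0.183 for AKINBETA1, 0.186 for SFP1, 0.179 for SIS and 0.137 for DI21.

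Other rises with a symbol had larger or steadier differences. P1R1 had a signal of 154 and 108 in the mutant, against 34.9 and 31.3 in Ws (1.87, SE 0.25, adjusted p = 0.00259). CP5 had a signal of 1123 and 865 in the mutant, against 417 and 411 in Ws (1.25, SE 0.15, adjusted p = 0.00111). P1R1 and CP5 kept their calls without any 1 array, and in both the mutant lay above all 6 other arrays. HL, a relative of the yeast HAL2 phosphatase that removes a by-product of sulfate metabolism, had a signal of 288 and 243 in the mutant, against 140 and 132 in Ws (0.95, SE 0.15, adjusted p = 0.00885). 2A6 had a signal of 81.9 and 82.0 in the mutant, against 34.8 and 40.7 in Ws (1.06, SE 0.17, adjusted p = 0.00875). In 2A6 the mutant was level with Ler, at 80.1 and 91.1, and Ws alone was low. The call of HL was lost without replicate 2 of Ws (adjusted p = 0.0788) or replicate 1 of the mutant (0.0692), and that of 2A6 without replicate 1 of Ws (0.0526) or replicate 1 of the mutant (0.0501).

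**Figure D3:**
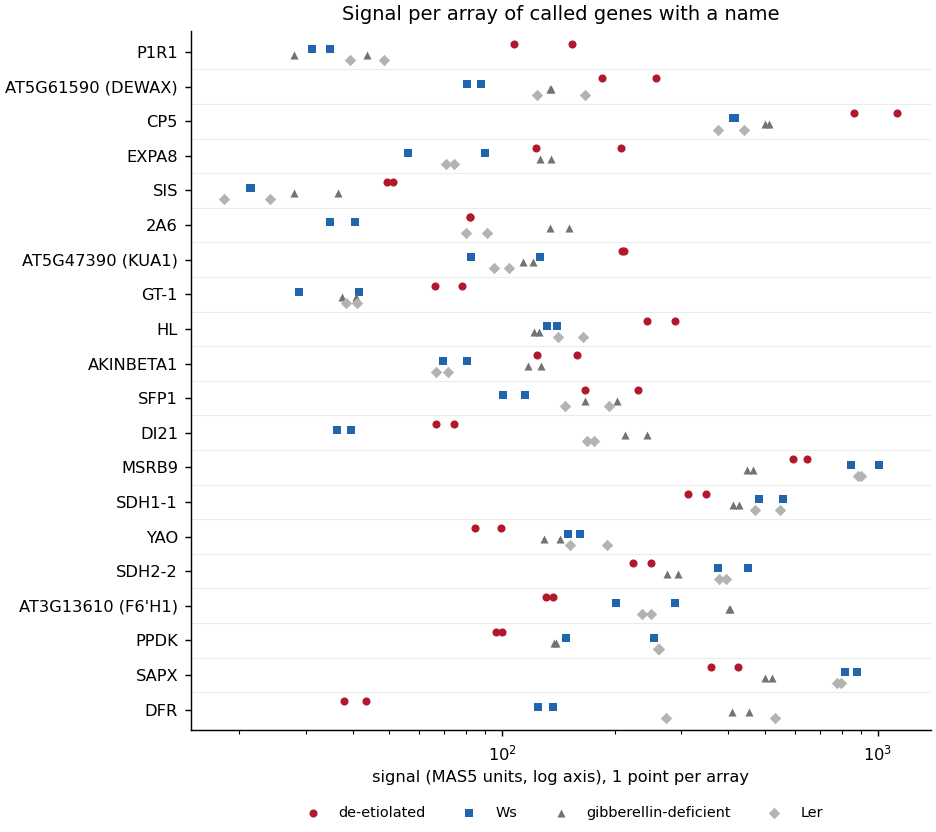
Signal per array (horizontal log axis, MAS5 units) of the 12 largest called rises (upper rows) and the 8 called falls (lower rows) among genes with a symbol or alias. Red circles are de-etiolated arrays, blue squares Ws, dark triangles the gibberellin-deficient mutant and pale diamonds Ler, 2 each. In all 20 rows the red circles lie on one side of the blue squares, while for DI21, 2A6, SFP1 and AT5G61590 the blue squares lie alone at the low end.

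Genes that make or decorate anthocyanins, the red to purple pigments of the vacuole, and other flavonoids were read as a list. Of the 5 genes matched to it and tested, 1 was called, lower in the mutant, against 1.99% of all named genes. The listed names F3'H, UGT75C1, UGT89C1, AT3AT1, PAP1, PAP2 and SAT matched no single entry of the gene table and were not counted. Their genes may be among those known by locus tag only. Of the 36 flavonoid genes that did match the gene table, a probe set names 8, of which 5 were bright enough to be tested. Called genes known by locus tag only and called probe sets without a gene name may hold further members. The count of 1 call may therefore be too low for the list. All 5 had log2 differences below 0 (median -1.14, against 0.03 over all named genes tested). DFR was the called gene. This reductase that makes the precursors of anthocyanidins had a signal of 38.0 and 43.5 in the mutant, against 125 and 137 in Ws (-1.62, SE 0.24, adjusted p = 0.00559). UF3GT, an anthocyanin glycosyltransferase, had a signal of 8.84 and 37.0 in the mutant, against 69.5 and 74.0 in Ws (-1.78, SE 0.42, adjusted p = 0.0504). AT5MAT, a malonyltransferase of anthocyanins, had a signal of 14.8 and 10.5 in the mutant, against 30.6 and 31.9 in Ws (-1.14, SE 0.30, adjusted p = 0.0754). The 3 genes shared one order of groups: mutant arrays lowest, Ws next, and Ler with the gibberellin-deficient mutant highest, with no overlap between these levels. UGT78D2, a flavonoid 3-O-glucosyltransferase, had 135 and 127 in the mutant, against 149 and 151 in Ws (-0.20, SE 0.15). UGT78D1, a flavonol rhamnosyltransferase, had 35.0 and 39.8 in the mutant, against 37.1 and 48.3 in Ws (-0.17, SE 0.23), and its arrays overlapped. Chalcone isomerase (CHI), the reductase BAN and UGT78D3 were below the signal filter.

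The DFR call was lost without replicate 2 of Ws (adjusted p = 0.0581) or replicate 1 of the mutant (0.0501). UF3GT gained a call without replicate 2 of the mutant, the brighter one (log2 difference -2.66, adjusted p = 0.00112), and AT5MAT without replicate 1 (0.0329) or replicate 2 (0.041) of Ler. Set against Ler (older actin control ratios of 2.35 and 2.32 in the mutant and 5.22 and 4.77 in Ler), all 5 genes were called lower in the mutant, DFR by -3.14 (SE 0.24) and UF3GT by -3.05 (SE 0.42). AT4G14090, known by locus tag only and named after its value was seen, had a signal of 21.0 and 15.3 in the mutant, against 59.6 and 71.1 in Ws (-1.70, SE 0.27, adjusted p = 0.00757). Its Ler signals were 164 and 329, the same order of groups as DFR. The call of AT4G14090 was lost without replicate 2 of Ws (adjusted p = 0.0746).

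Among genes known to respond to brassinosteroids, 1 was called higher. None of the 18 listed genes of brassinosteroid synthesis is named alone by a probe set, so that pathway was not analysed here. All 5 named members of the response list were tested, and 1 was called, against 1.99% of all named genes. EXPA8, an expansin that loosens cell walls, had a signal of 208 and 123 in the mutant, against 89.8 and 56.1 in Ws (1.14, SE 0.25, adjusted p = 0.0401). The other 4 had log2 differences below 0 that were not called. EXO, which promotes cell expansion in leaves, had a signal of 142 and 118 in the mutant, against 191 and 328 in Ws (-0.94, SE 0.23, adjusted p = 0.0591). The xyloglucan endotransglucosylases XTH18, XTH16 and XTH19, which cut and rejoin wall xyloglucan, had log2 differences of -0.81 (adjusted p = 0.0965), -0.58 (0.061) and -0.54 (0.215). The mutant arrays lay below the Ws arrays for all 4 (no overlap in either direction was met in 46.4% of all probe sets tested). In a wider list of 11 tested brassinosteroid-related genes with a symbol, 6 lay above 0 and 5 below (median 0.01). EXPA8 was the 1 called there too. The call of EXPA8 was lost without replicate 2 of Ws, replicate 1 of the mutant, replicate 2 of Ler or either gibberellin-deficient array (adjusted p 0.0505 to 0.28). EXO gained a call without replicate 1 of Ws (adjusted p = 0.017) and XTH18 without replicate 1 (0.0301) or replicate 2 (0.0336) of Ler.

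In the wider families of wall proteins the calls were read beside the 1.99% of all named genes that were called. Of 8 xyloglucan endotransglucosylases tested, none was called and 7 had log2 differences below 0 (median -0.56, smallest adjusted p 0.061). XTH33, next to XTH18 in size, had a signal of 38.7 and 34.6 in the mutant, against 67.1 and 63.6 in Ws (-0.79, SE 0.21, adjusted p = 0.0815). XTH20 was the exception in sign (0.28, SE 0.30), and its arrays overlapped. Against Ler, 4 of the 8 were called lower in the mutant, among them XTH26 (-1.56, adjusted p = 0.000966). Of 12 expansins tested, EXPA8 was the 1 called, with 5 members above 0 and 7 below (median -0.07). EXPA9 had a signal of 118 and 135 in the mutant, against 87.3 and 75.2 in Ws (0.62, SE 0.18, adjusted p = 0.0972). EXPB3 had a signal of 62.2 and 63.0 in the mutant, against 121 and 83.8 in Ws (-0.66, SE 0.23, adjusted p = 0.162). Of 25 tested genes of cellulose synthesis and the secondary wall, none was called (median 0.09, smallest adjusted p 0.0891). In lists of this size such counts are near that share.

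None of the tested light-related genes was called, which at 1.99% called over all named genes is near the background for lists this short. Among 12 tested light, shade and clock genes with a symbol, log2 differences ran from -0.57 to 0.39 (median 0.10, smallest adjusted p 0.303). HYH, a bZIP factor that acts with HY5 in light-grown seedlings, had a signal of 56.1 and 46.1 in the mutant, against 49.3 and 70.8 in Ws (-0.21, SE 0.24). PORB, the enzyme that reduces protochlorophyllide in light, had a signal of 1817 and 2370 in the mutant, against 2223 and 1633 in Ws (0.12, SE 0.17). In both genes the 2 groups overlapped. None of 8 nuclear photosynthesis genes was called (median 0.01, from -0.57 for RCA to 0.48 for LHCB4.2), and none of 8 genes of chlorophyll synthesis (median 0.12, from -0.32 for GSA1 to 0.44 for CHLM). CHLM, the methyltransferase of chlorophyll synthesis, had a signal of 1215 and 1255 in the mutant, against 949 and 875 in Ws (SE 0.14, adjusted p = 0.128).

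Of 68 tested plastid-encoded genes none was called, against 1.99% of all named genes. In this set 34 lay above 0 and 34 below, and the smallest adjusted p was 0.0683. The classes are described by counts alone, and differences between them were not tested. Of 15 plastid ribosomal protein genes, 13 lay below 0 (median -0.16), and so did all 4 genes of the plastid RNA polymerase (median -0.35). Of 27 genes for photosystems, the cytochrome b6f complex and rbcL, 19 lay above 0 (median 0.10), against 54.0% of all named genes tested. The gene rpoB of the plastid RNA polymerase had a signal of 81.9 and 107 in the mutant, against 143 and 139 in Ws (-0.57, SE 0.17, adjusted p = 0.115). In rpoA, of the same complex, it was 875 and 865 in the mutant, against 1674 and 1241 in Ws (-0.73, SE 0.31, adjusted p = 0.251).

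**Figure D4:**
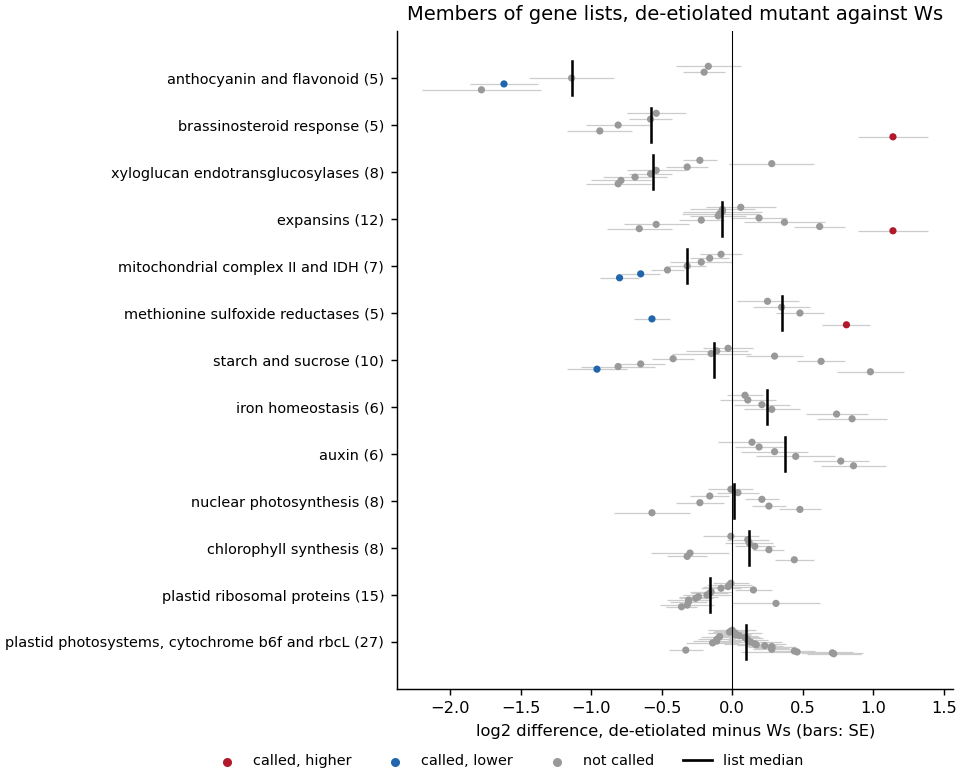
Log2 differences of the de-etiolated mutant minus Ws (horizontal axis, with SE bars) for the tested members of 13 gene lists, with the number of members in parentheses. Red points were called higher, blue points called lower and grey points not called, and black ticks mark the list medians. Anthocyanin genes and xyloglucan endotransglucosylases lie mostly below 0, with medians of -1.14 and -0.56, while photosynthesis and chlorophyll genes lie around 0.

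Enzymes were among the called falls with a symbol. SAPX, the ascorbate peroxidase of the chloroplast stroma, had a signal of 360 and 424 in the mutant, against 816 and 877 in Ws (-1.11, SE 0.13, adjusted p = 0.000994). Its call held without any 1 array, and the mutant arrays lay below all 6 others and the Ws arrays above all 6 others. SDH2-2 and SDH1-1 are subunits of succinate dehydrogenase, complex II of the mitochondrial respiratory chain. SDH2-2 had a signal of 223 and 248 in the mutant, against 375 and 451 in Ws (-0.80, SE 0.14, adjusted p = 0.0131). SDH1-1 had a signal of 312 and 349 in the mutant, against 481 and 557 in Ws (-0.65, SE 0.14, adjusted p = 0.0332). Both were lowest in the mutant among all 8 arrays. Of 7 tested genes of complex II and of isocitrate dehydrogenase, these 2 were called, against 1.99% of all named genes. All 7 lay below 0 (median -0.32), and the 5 others were not called. The nearest of these was IDH-V, a subunit of mitochondrial isocitrate dehydrogenase, at -0.46 (SE 0.12, adjusted p = 0.065). The call of SDH2-2 was lost without replicate 2 of Ws or replicate 1 of the mutant (adjusted p up to 0.138). The call of SDH1-1 was lost without these, replicate 1 of Ws or either gibberellin-deficient array (up to 0.241).

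PPDK, pyruvate orthophosphate dikinase, had a signal of 99.7 and 96.1 in the mutant, against 148 and 253 in Ws (-0.96, SE 0.21, adjusted p = 0.0362). It was the 1 called gene of 10 tested genes of starch and sucrose metabolism, whose median was -0.13. Over all named genes, 1.99% were called. ATSPS4F, a sucrose phosphate synthase, lay at the other end with 113 and 148 in the mutant, against 80.1 and 51.7 in Ws (0.98, SE 0.24, adjusted p = 0.054). SBE2.2, a starch branching enzyme, had a signal of 302 and 419 in the mutant, against 509 and 612 in Ws (-0.65, SE 0.17, adjusted p = 0.0754). For all 3 genes the groups did not overlap, as in 46.4% of all probe sets tested. The PPDK call was lost without either mutant array, replicate 2 of Ws or either gibberellin-deficient array (adjusted p 0.0708 to 0.235).

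Of 5 tested methionine sulfoxide reductases, which repair oxidised methionine, 1 was called higher and 1 lower, against 1.99% of all named genes called. MSRB6 had a signal of 176 and 216 in the mutant, against 111 and 109 in Ws (0.81, SE 0.17, adjusted p = 0.028). MSRB9 had a signal of 594 and 647 in the mutant, against 848 and 1006 in Ws (-0.57, SE 0.13, adjusted p = 0.0392). The mutant was the highest group in MSRB6 and an intermediate one in MSRB9, where the gibberellin-deficient arrays were lower at 449 and 466. MSRB5 had a signal of 367 and 455 in the mutant, against 313 and 275 in Ws (0.48, SE 0.17, adjusted p = 0.165), and the other 2 of the 5 tested members lay between 0.25 and 0.35. Both calls were lost without either Ws array, replicate 1 of the mutant or either gibberellin-deficient array. That of MSRB6 was also lost without replicate 2 of the mutant and that of MSRB9 without replicate 2 of Ler (adjusted p up to 0.166 for MSRB6 and 0.282 for MSRB9).

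The 2 remaining falls with a symbol or alias act in other processes. AT3G13610 (alias F6'H1), the enzyme that starts the synthesis of the coumarin scopoletin, had a signal of 131 and 137 in the mutant, against 289 and 201 in Ws (-0.83, SE 0.17, adjusted p = 0.0245). YAO, a nucleolar protein required for gamete development, had a signal of 84.7 and 99.5 in the mutant, against 149 and 162 in Ws (-0.74, SE 0.17, adjusted p = 0.0429). The mutant was the lowest group in both. The AT3G13610 call was lost without either mutant array, replicate 1 of Ws or either gibberellin-deficient array (adjusted p up to 0.128). The YAO call was lost without any 1 array of the mutant, Ws or the gibberellin-deficient mutant (up to 0.238).

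The largest falls of named genes lay among those known by locus tag only. AT3G16530 had a signal of 143 and 99.0 in the mutant, against 444 and 834 in Ws (-2.33, SE 0.25, adjusted p = 0.000689). AT1G14210 had a signal of 63.8 and 79.6 in the mutant, against 370 and 352 in Ws (-2.29, SE 0.15, adjusted p = 3.96e-05), the smallest adjusted p of the comparison. AT2G23540 had a signal of 27.4 and 37.3 in the mutant, against 159 and 169 in Ws (-2.26, SE 0.23, adjusted p = 0.000433). These 3 kept their calls without any 1 array. For AT1G14210 and AT2G23540 the mutant arrays were the lowest and the Ws arrays the highest of all 8. AT1G51850 had a signal of 12.8 and 8.06 in the mutant, against 26.3 and 64.7 in Ws (-1.76, SE 0.37, adjusted p = 0.0325). Its call was lost without replicate 2 of Ws, either mutant array or either gibberellin-deficient array (adjusted p 0.0576 to 0.263). Further falls by locus tag, taken after their values were seen, ran from -1.70 to -1.43. Among them AT1G74460, AT5G09480 and AT4G38080 (-1.53, -1.53 and -1.43) kept their calls without any 1 array.

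Called genes were spread over the genome. Of 7180 nuclear genes tested once each, 144 were called, and the share per chromosome ran from 1.81% on chromosome 2 to 2.44% on chromosome 4. Only genes matched to a locus tag were put in order. Left out were the 155 called probe sets that name no gene, the 5 that name several, and any that was not the brightest of its gene. Also left out was AT5G57785 (1.69, SE 0.19, adjusted p = 0.000958). Its number follows that of P1R1 (AT5G57780), which was also called higher. Among the ordered genes, no run of 4 or more measured neighbours was called in the same direction, and 4 pairs of measured neighbours were. One is the pair AT3G16660 and AT3G16670, given above. A second pair is AT4G33660, with 380 and 416 in the mutant, against 217 and 270 in Ws (0.71, SE 0.15, adjusted p = 0.032), and AT4G33666. The third is LCR69 and LCR68, defensin-like genes that code for small cysteine-rich peptides. LCR68 had a signal of 1426 and 1052 in the mutant, against 782 and 687 in Ws (0.74, SE 0.16, adjusted p = 0.0372). LCR69 had a signal of 1645 and 1808 in the mutant, against 1190 and 1203 in Ws (0.53, SE 0.11, adjusted p = 0.0358), and Ws alone was low. The remaining pair fell: AT4G12490 was at 70.9 and 57.2 in the mutant, against 126 and 263 in Ws (-1.47, SE 0.29, adjusted p = 0.022). AT4G12500 was at 55.7 and 38.3 in the mutant, against 98.3 and 150 in Ws (-1.34, SE 0.25, adjusted p = 0.0185). In AT4G12490 the mutant was the lowest group, whereas in AT4G12500 Ws was the highest and the mutant lay beside Ler at 49.7 and 58.7. Neighbours with similar sequence may share probe signal, which was not tested.

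Of these pairs, AT3G16660 with AT3G16670 kept both calls without any 1 array, and the number of pairs was 1 to 5 when 1 array was left out. AT4G33660 and LCR69 lost their calls without any 1 array of the mutant, Ws or the gibberellin-deficient mutant (adjusted p up to 0.154 and 0.183). LCR68 lost its call without either Ws array, replicate 1 of the mutant or either gibberellin-deficient array (up to 0.238). AT4G12490 and AT4G12500 lost theirs without replicate 2 of Ws or replicate 2 of the mutant, and AT4G12490 also without replicate 1 of the mutant (up to 0.164 and 0.183).

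Some of the other lists had all their matched and tested members on one side of 0 with none called. Of all named genes tested, 54.0% lay above 0. The lists given here were picked after their values were seen, and their direction was not tested. All 6 tested genes matched to the iron homeostasis list lay above 0 (median 0.25). The largest difference among them was that of the bHLH factor PYE, with 78.8 and 114 in the mutant, against 40.3 and 64.9 in Ws (0.85, SE 0.25, adjusted p = 0.102). The listed names FIT, IMA1, IMA2, IMA3, FEP1, FEP2 and FEP3 matched no single entry of the gene table and were not counted. Their genes may be among those known by locus tag only, some of which were called. The absence of a call thus holds for the matched iron genes and not for the whole list. All 6 tested auxin genes lay above 0 (median 0.37). Among these, WES1, which conjugates auxin to amino acids, had a signal of 213 and 148 in the mutant, against 107 and 98.5 in Ws (0.77, SE 0.20, adjusted p = 0.065). All 5 tested histone genes lay below 0 (median -0.19, smallest adjusted p 0.0831). Other lists had members on both sides of 0. Of 16 tested salicylate and immune genes with a symbol, 12 lay below 0 (median -0.21, smallest adjusted p 0.207). Of 7 gibberellin genes, 6 lay above 0 (median 0.06), with GID1B, a gibberellin receptor, at -0.53 (adjusted p = 0.337). Of 6 cold and dehydration genes, DI21 was the 1 called (median 0.20), against 1.99% of all named genes called.

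The gibberellin-deficient mutant against Ler shares no array with the present comparison, though both took their spread from the same fit. In it 1464 probe sets were called (10.7% of all tested), and 94 probe sets were called in both comparisons. These were 30.7% of the 306 calls of the de-etiolated mutant, against 10.7% of all tested called in the gibberellin-deficient mutant. They were 6.42% of the 1464 calls of the gibberellin-deficient mutant, against 2.24% of all tested called in the de-etiolated mutant. In 70 the direction was the same (36 higher and 34 lower in both mutants). In 24 it was opposite, with 5 higher and 19 lower in the de-etiolated mutant. How many of all tested probe sets had the same direction in both comparisons was not counted, so these numbers carry no background. Examples of the same direction were AT3G16530, at -2.33 in the de-etiolated mutant and -2.66 (SE 0.25, adjusted p = 0.000148) in the gibberellin-deficient mutant, and SAPX, at -1.11 and -0.62 (SE 0.13, adjusted p = 0.0105). PPDK fell in both as well, by 0.96 and 0.90 on the log2 scale, and AKINBETA1 rose in both (0.87 and 0.79). AT3G13610 was among those of opposite direction, at -0.83 in the de-etiolated mutant and 0.73 (SE 0.17, adjusted p = 0.0175) in the gibberellin-deficient mutant. AT2G19970 was another, at -1.52 (SE 0.26) and 1.63 (SE 0.26). The examples were chosen after their values were seen. DFR, by contrast with its fall against Ws, had a difference of 0.17 (SE 0.24, adjusted p = 0.704) between the gibberellin-deficient mutant and Ler. The number called in both ranged from 30 without replicate 2 of Ws to 145 without replicate 2 of the de-etiolated mutant. It was 38 without replicate 1 of the de-etiolated mutant, 36 and 34 without replicates 1 and 2 of the gibberellin-deficient mutant, and 60 and 62 without replicates 1 and 2 of Ler. Those of the same direction ranged from 18 without replicate 2 of Ws to 122 without replicate 2 of the de-etiolated mutant. They were 26 of 38 without replicate 1 of the de-etiolated mutant, 36 of 62 without replicate 2 of Ler, and 26 of 36 and 29 of 34 without replicates 1 and 2 of the gibberellin-deficient mutant. Without the variance trend they were 22 of 36.

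Set against Ler in place of Ws, 2164 probe sets (15.9%) were called for the de-etiolated mutant, and 794 (5.82%) were called between the wild types Ws and Ler. Ws was chosen for its nearness to the mutant, so fewer calls against Ws than against Ler are partly built in by that choice. The older actin control ratio was 2.32 to 2.35 in the mutant and 4.77 to 5.22 in Ler, and its part in the differences from Ler was not tested. The comparisons share arrays, so their values are given side by side for genes where they differ in size or sign. AT3G16670 was higher by 4.18 against Ws and by 4.79 (SE 0.33) against Ler, and AT1G14210 differed by -2.29 and -2.22. For AT5G22580 the values were 2.09 against Ws and 0.06 (adjusted p = 0.886) against Ler, and for 2A6 they were 1.06 and -0.06 (adjusted p = 0.862). DI21 had opposite signs, 0.84 against Ws and -1.25 against Ler. In these 3 genes Ws differed from Ler by -2.02, -1.12 and -2.09 (adjusted p = 0.000175, 0.00235 and 8.99e-06). For AT3G28320 the values were 1.70 against Ws and 4.23 against Ler, with Ws above Ler by 2.53 (adjusted p = 0.000462). The 2 wild types thus placed the mutant differently for these 4 genes and alike for AT3G16670 and AT1G14210.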

How the data were processed

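RNA of whole seedlings was measured on 8 arrays, 2 per group. The authors deposited 1 signal intensity per probe set and array, and per the submitters' processing notes MAS5 made these values; its settings are not given in the sources used here. Samples were grouped by source label. No label states separate cultures for paired arrays, so the p-values reflect the spread among these samples, which may be technical, and the number of arrays limits the precision.

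Of 22810 probe sets, 64 are array controls; the platform annotation names 1 gene for 13513, several for 503 and none for 8730. Of the first, 13436 matched the gene table (assembly TAIR10.1), 1551 of them to an entry with its own symbol. Values were log2(signal + 2.96), 10% of the median signal, which understates changes of dim genes. Controls and the lowest 40% by mean log2 value (signal under about 24.2) were left out. The 4 groups were fitted together in limma (lmFit, contrasts.fit, eBayes with trend; 4 residual degrees of freedom; two-sided; Benjamini-Hochberg over 13647 probe sets; threshold 0.05). The median SE was 0.197. Each gene was counted by its brightest probe set. The steps were tested on simulated data.

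Named were, among called probe sets of 1 gene with no overlap of arrays, the 12 largest rises and falls with a symbol or alias (8 such falls exist), the 4 largest of each by locus tag, called list members (up to 4 a list), all tested anthocyanin, brassinosteroid and light signalling genes, and neighbouring called genes. List members not called and the next 8 by locus tag in each direction were added after values were seen. The members and lists were chosen with earlier results of these data known, and 28 lists were added after the annotation was read. Listed names that matched no single entry of the gene table were not counted. The main fit did not pair samples by replicate number. Deviations of the replicates numbered 1 correlated at -0.0334 for the mutant and Ws, and at up to 0.137 (Ws with Ler) for other groups. Alternatives covered normalization, scaling, pseudocount, filter, trend, arrays in the fit, cross-hybridising probe sets, a block for the replicate number, and each array left out once. R 4.3.3, limma 3.58.1, Python 3.11.15, pandas 2.3.3, numpy 2.4.6 and matplotlib 3.10.9 were used.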

Additional observations from a re-analysis of the deposited data

Results flagged for a closer look

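Among 19 array controls made from Arabidopsis genes, which entered no comparison, the control for 25S ribosomal RNA stood out against Ws. Its mean signal was 85.3 in the de-etiolated arrays (108 and 62.4), against 27.1 in the Ws arrays (32.0 and 22.2). The gibberellin-deficient arrays, at 69.7 and 39.6, overlapped the de-etiolated ones, and Ler was at 30.3 and 26.0. The part of this control in the called differences was not tested.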

How the results depend on the processing

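The 306 calls stayed within 1.5 times that number under quantile normalization (279), median centring (344), both other pseudocounts (329 and 304), the stricter filter (338) and without cross-hybridising probe sets (314). They numbered 135 without a filter on dim probe sets, where 22746 were tested, 115 with eBayes without trend and 162 with only the 4 arrays of the comparison, where the spread rests on fewer arrays. With the replicate block there were 430 calls; the block ended no call of a named gene and added those of UF3GT (adjusted p = 0.0193) and EXO (0.0495). Leaving out 1 array gave 77 to 367 calls. The share of calls with mutant arrays outside the range of the others was 72.6%, 78.3% without trend, 66.5% with the block and 70.8% to 86.1% without 1 array. No run of 4 neighbours arose under any of the alternatives. Of 49 called genes named, 17 kept their call without any 1 array; where 1 array was left out of a pair, the lone array is assumed to vary like the other groups. Of these 49, 21 lost their call without the filter, 20 without trend and 19 with 4 arrays. UF3GT was also called under quantile normalization (0.049), median centring (0.0406), the larger pseudocount (0.0448), the stricter filter (0.0452) and without cross-hybridising probe sets (0.0458), and median centring added EXO (0.0492) and XTH16 (0.0462). Quantile normalization ended the calls of EXPA8 (0.0524), SFP1 (0.0646) and MSRB9 (0.0524), and median centring those of SFP1 (0.0588) and LCR68 (0.0505). Signs turned in 4 instances, all of genes not called (called genes, whose arrays do not overlap, could not turn this way): without 1 array PORB ranged from -0.10 to 0.34 (below 0 without replicate 2 of Ws, and at -0.07 without replicate 2 of the mutant), UGT78D1 from -0.35 to 0.01 and HYH from -0.46 to 0.04 (both above 0 without replicate 2 of Ws). The causes were not tested.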
